A study of Mus musculus with 18 samples.

Results

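The 4 genes described here encode chemokines, small secreted or shed proteins that direct the movement of cells: Cxcl1, Cxcl5 and Cxcl12 of the CXC class, and Cx3cl1, the single member of the CX3C class. They were chosen by gene symbol in the annotation of the array, which gave 8 probe sets (2 for Cxcl1, 1 for Cxcl5, 3 for Cxcl12 and 2 for Cx3cl1) for 4 of the 8251 genes on it. All 8 probe sets passed the filter on low intensity. The cells were C3H10T1/2, an established line of mouse embryo fibroblasts that can be turned towards fat cells. The 3 agents were given alone and in every combination, which made 8 groups on 18 arrays. The full combination (IDMB + EGF + TCDD), IDMB + TCDD and IDMB + EGF had 2 arrays each, IDMB alone had 3, EGF+TCDD, TCDD alone and EGF alone had 2 each, and UT, read here as the group with none of the agents, had 3. IDMB is a fat-inducing mix of 10 µg/mL insulin, 1 µM dexamethasone, 0.5 µM IBMX and 1 µM BRL49653 (rosiglitazone, a PPARG agonist) given for 24 h. EGF is epidermal growth factor (10 nM, 24 h). TCDD is a dioxin that activates the aryl hydrocarbon receptor, AhR (10 nM, 72 h). All groups shared the same culture conditions: cells were harvested 24 h past confluence and 72 h without fresh serum, and each array carried mRNA pooled from 6 cultures, so the spread between cultures was averaged within an array. Nothing in the labels says how the cultures of separate arrays were raised, so p-values measure only the spread between these arrays.

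Chemokines bind receptors that couple to G proteins on the moving cell. CXCL1 and CXCL5 carry the ELR motif and attract neutrophils through CXCR2, and their genes are classic targets of NF-kB in fibroblasts exposed to cytokines. CXCL12 is made steadily by stromal fibroblasts and holds blood stem cells and lymphocytes in place through CXCR4, while ACKR3 takes it up and removes it. CX3CL1, or fractalkine, sits in the cell membrane on a mucin stalk, is released by the proteases ADAM10 and ADAM17, and binds CX3CR1 on monocytes and microglia. Cytokine genes of this kind are commonly held down by glucocorticoids such as dexamethasone.

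The promoters are shown because the genes moved in different directions under the same agents, and each is the 250 bases before the annotated start of the gene, from RefSeq on build GRCm38.p6, plus strand. Capitals mark a match to the kappaB consensus bound by NF-kB. Cxcl5 is named only.
Cxcl1: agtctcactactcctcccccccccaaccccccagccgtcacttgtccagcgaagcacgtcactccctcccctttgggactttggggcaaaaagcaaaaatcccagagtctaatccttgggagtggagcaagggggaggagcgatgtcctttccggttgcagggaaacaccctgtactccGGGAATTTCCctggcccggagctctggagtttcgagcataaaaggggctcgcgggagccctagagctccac
Cxcl12: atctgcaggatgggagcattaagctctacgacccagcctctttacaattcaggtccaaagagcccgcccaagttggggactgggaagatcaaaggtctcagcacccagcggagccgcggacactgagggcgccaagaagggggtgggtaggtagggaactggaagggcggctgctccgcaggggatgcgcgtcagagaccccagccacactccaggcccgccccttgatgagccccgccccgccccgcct
Cx3cl1: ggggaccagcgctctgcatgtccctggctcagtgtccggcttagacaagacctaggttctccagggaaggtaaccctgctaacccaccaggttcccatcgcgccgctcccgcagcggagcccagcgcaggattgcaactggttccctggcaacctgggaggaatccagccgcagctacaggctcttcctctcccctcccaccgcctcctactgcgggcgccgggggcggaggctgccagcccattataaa
These lie at chr5:90890995-90891244 for Cxcl1, chr6:117168285-117168534 for Cxcl12 and chr8:94771930-94772179 for Cx3cl1. On both strands, this strict kappaB form was found 1 time in the Cxcl1 promoter, 71 bases before the start, and was not found in those of Cxcl12 and Cx3cl1. It is present in 0.356% of the 32851 mouse promoters of this length. The AhR site TNGCGTG (4.1% of promoters), the AP-1 site TGANTCA (6.75%) and the palindromic glucocorticoid response element (0.00913%) were in none of the 3. A match is a description of the letters only.

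Values are intensities in the units of the deposited tables, and a log2 difference is the first-named group minus the second. The 18 arrays had been scaled alike, with medians of 793.4 to 935.7. Known targets moved with each agent: 5 of 5 AhR target genes were higher with TCDD, 4 of 4 EGF response genes with EGF and 4 of 4 IDMB response genes with IDMB (limma mean effects). Col1a1, a fibroblast collagen, read 68469 to 152911, and 9 of 11 fibroblast markers on the array passed the filter. Vim (103 to 939) and Lum (208 to 651) did not pass. Of 11 macrophage markers 3 passed, Cd14 (3354 to 10450), Csf1r and Mpeg1. Ptprc, Itgam, Adgre1, Lyz2, Tyrobp and Marco were at or below the floor of 143.5 on 14 or more of 18 arrays. Fcgr1 (234 to 1196) and Cd68 (65 to 1444) did not pass the filter but were at or below the floor on only 0 and 1 of 18. Of 8 endothelial markers Pecam1 passed (123 to 1115). Cdh5, Cldn5, Vwf and Tie1 were at or below the floor on 16, 18, 15 and 12 arrays, and Kdr, Tek and Emcn on 2, 3 and 3. Of 8 epithelial markers Cdh1 passed (1626 to 3364). Epcam, Krt14 and Krt19 were at or below the floor on 14, 16 and 18 arrays, Krt8 on 7, and Krt18, Cldn4 and Cldn3 on 3, 1 and 0. Summed over its 11 measured genes, the fibroblast list read 229878 to 262653 with IDMB alone and 243297 to 302212 with TCDD alone, against 364451 to 425790 in UT. The macrophage list, also a sum over 11 genes, read 11392 to 13736 with TCDD alone, against 7140 to 8636 in UT. These are sums of intensity, so the brightest genes weigh most. Those were Cd14 in the macrophage list, where every other gene read at most 1517, and Col1a1 and Col1a2 in the fibroblast list. A sum therefore does not show that its genes moved together. Of the 3 tested macrophage genes, limma called 1 higher in TCDD against UT, against 7.68% of all probe sets called. The part of either list in the chemokine results was not tested. In pooled cultures, fewer cells that make a transcript and less RNA per cell cannot be told apart. The ratio of 3' to 5' signal, which rises as RNA is shortened, differed between groups. For actin it was 1.8 to 3.8 on the 9 arrays with IDMB and 1.23 to 1.93 on the 9 without. For Gapdh it was 2.13 to 2.86 with EGF and TCDD, 0.854 to 1.09 with TCDD and no EGF, 1.43 to 2.47 with EGF and no TCDD, and 1.19 to 1.73 with neither. With either ratio as a covariate, 0 probe sets were called for the mean EGF effect, and where one ended a call named below, that is said beside the result. The ratios moved with the agents, so a call lost with one as covariate can also reflect a larger standard error.

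IDMB alone moved all 4 chemokines, and in 2 directions: Cxcl1, Cxcl5 and Cxcl12 were lower than in UT and Cx3cl1 was higher. When it was added to EGF, TCDD or both, Cx3cl1 was higher again, Cxcl12 was higher on top of EGF and of TCDD, and Cxcl1 and Cxcl5 were not called. With TCDD alone, Cxcl1 was lower and Cx3cl1 higher than in UT, and Cxcl12 was higher when TCDD was added to EGF or to IDMB. Cx3cl1 read 5716 and 6582 in EGF+TCDD cultures, below both the EGF and the TCDD arrays.

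**Figure D1:**
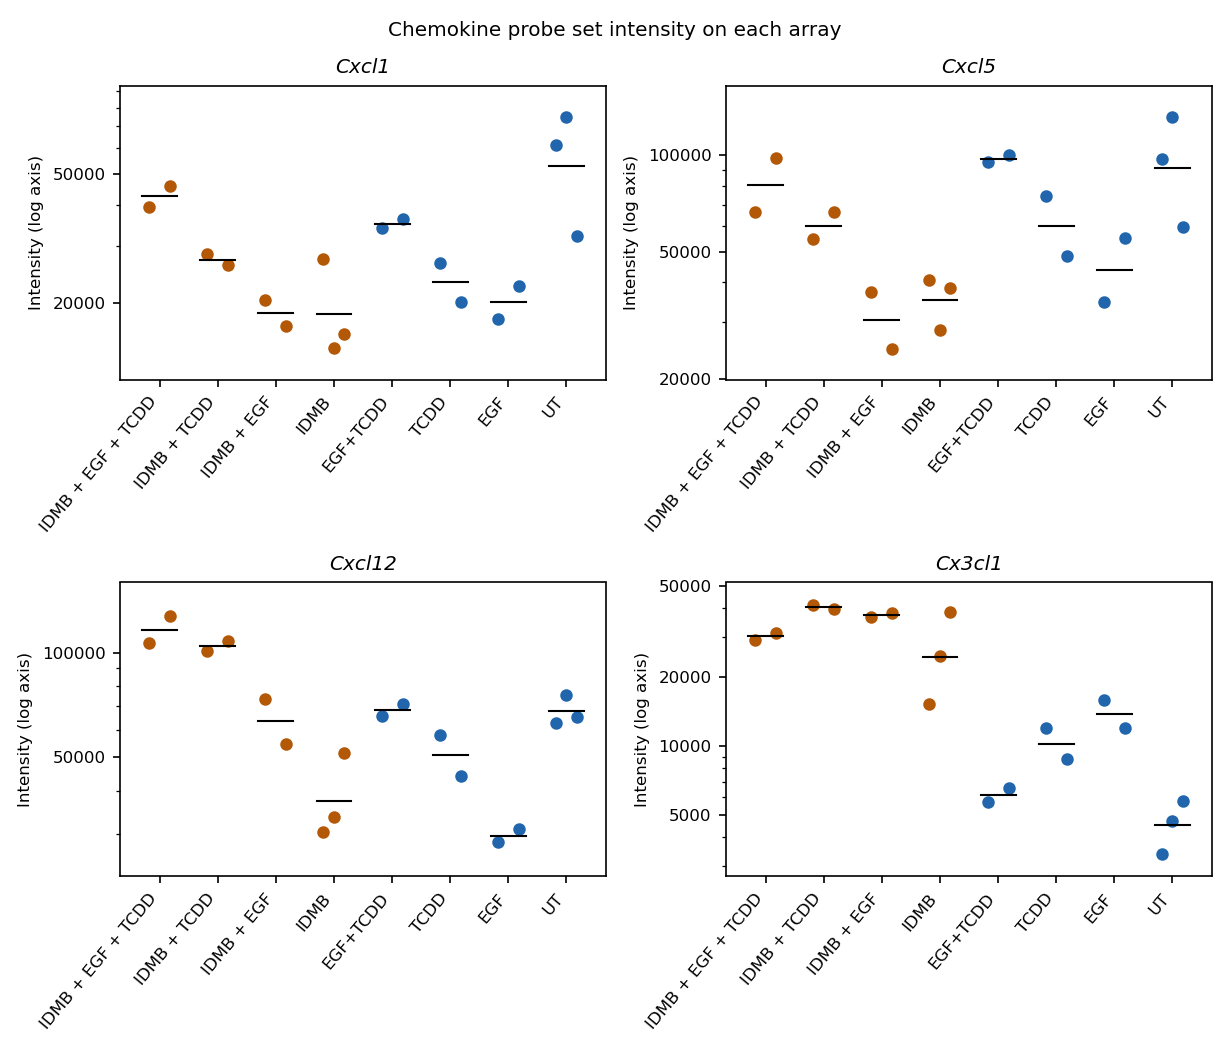
Intensity (log axis) of the probe set with the highest mean for each chemokine on each of 18 arrays, by group (brown with IDMB, blue without); the line is the geometric mean. Cx3cl1 is at 15262 or more on the 9 arrays with IDMB and at 15913 or less on the 9 without, and Cxcl12 is at 101119 or more on the 4 arrays with IDMB and TCDD and at 75688 or less elsewhere.

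Calls are limma adjusted p under 0.05 over 7134 probe sets, and the share of all tested probe sets called gives the background. Whether groups overlap is a description only. With 2 or 3 arrays in a group non-overlap is easily reached, and its share over all probe sets is not given here. For IDMB against UT, 4 of 4 were called, against a background of 14.1%. For IDMB + EGF against EGF and IDMB + TCDD against TCDD, 2 of 4 (Cxcl12 and Cx3cl1) were called, against 10.8% and 12.8%. For IDMB + EGF + TCDD against EGF+TCDD it was 1 of 4 (Cx3cl1), against 6.5%. TCDD against UT called 2 of 4 (Cxcl1 and Cx3cl1), against 7.68%. EGF+TCDD against EGF called 1 of 4 (Cxcl12), against 0.28%, and IDMB + TCDD against IDMB also 1 (Cxcl12), against 6.59%. For IDMB + EGF + TCDD against IDMB + EGF limma called 0 of 4, against 0.364%, with 3 of 4 at an unadjusted p under 0.05. The number of probe sets called moved with single arrays: for TCDD against UT it was 548 on all arrays and 114 without TCDD replicate 2, while for IDMB against UT it was 1004 and at least 785.

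The EGF contrasts differ in standing. These chemokines were picked with EGF against UT in view, so their values in that contrast are a description and carry no test (6.17% of all probe sets were called in it). Of the other EGF contrasts, limma called 0 of 4 for EGF+TCDD against TCDD (3.5% of all; 1 of 4 at an unadjusted p under 0.05), 0 of 4 for IDMB + EGF against IDMB (3.8%; 1 of 4) and 0 of 4 for IDMB + EGF + TCDD against IDMB + TCDD (0.28%; 0 of 4). The 3 contrasts against UT share the UT arrays, and those against EGF share the EGF arrays with the contrast that chose the genes, so likeness among them is no repeat. All p-values below place a difference against the spread between arrays and are not independent evidence about genes chosen this way.

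**Figure D2:**
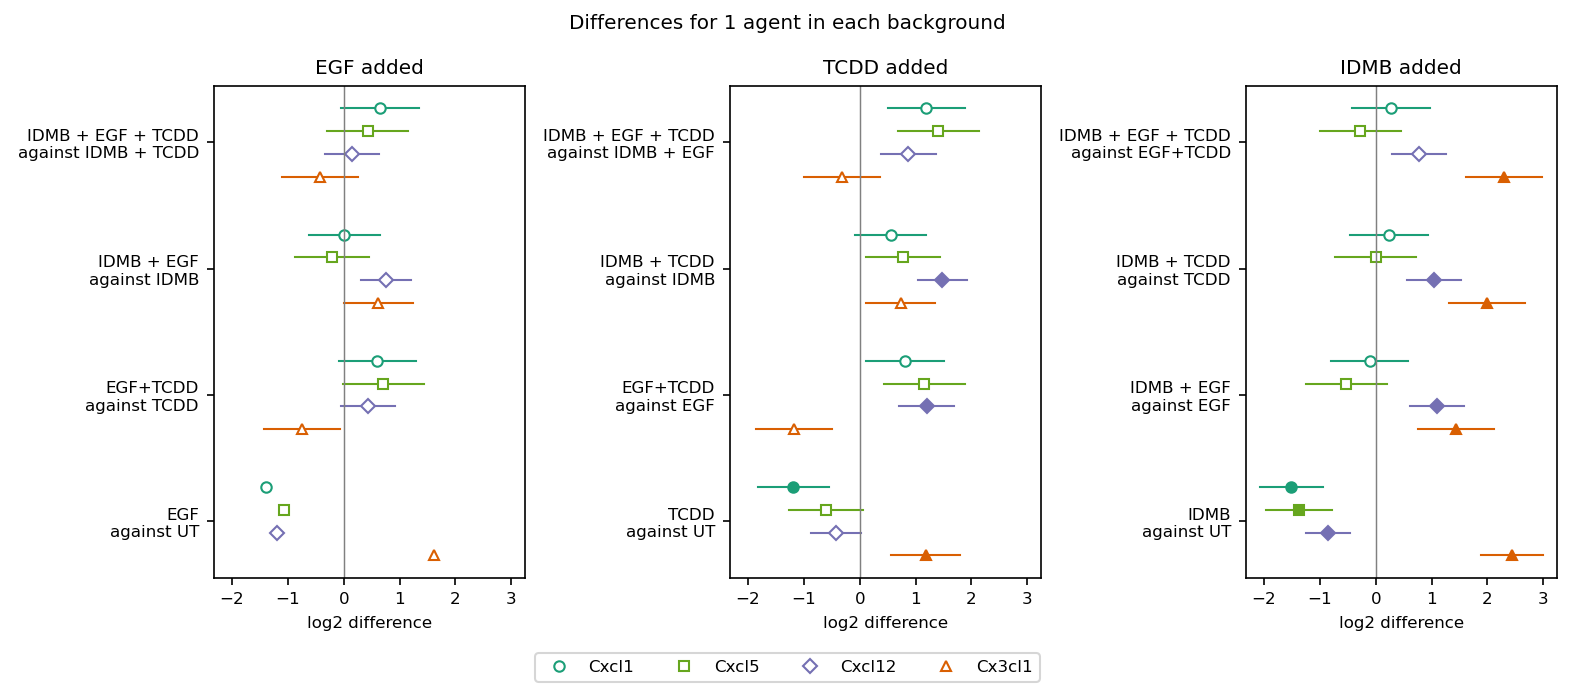
Log2 difference (x axis) for each agent added to 4 backgrounds, with 95% confidence intervals from limma; filled markers have adjusted p under 0.05, and EGF against UT is shown as values only. IDMB gives Cx3cl1 differences of 1.44 to 2.43 in every background, while its Cxcl1, Cxcl5 and Cxcl12 differences are below 0 against UT and the Cxcl12 ones are above 0 elsewhere.

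Cxcl1, a neutrophil attractant, had 27350, 14560 and 16083 with IDMB, against 61197, 74563 and 32249 in UT. The groups did not overlap, although IDMB replicate 1 lay above the other IDMB arrays and UT replicate 3 far below the other UT arrays. IDMB lowered Cxcl1 2.84-fold against UT (log2 -1.51, SE 0.268, limma adjusted p = 0.000958), a call kept without any one of the 6 arrays. With IDMB added to other agents no difference was called. IDMB + EGF had 20509 and 16973 against 17903 and 22646 with EGF, IDMB + TCDD 28321 and 26161 against 26654 and 20137 with TCDD, and the full combination 39661 and 45916 against 34124 and 36279 with EGF+TCDD. Their log2 values were -0.11, 0.23 and 0.28, with intervals from -0.81 to 0.97 that leave room for changes either way. The mean IDMB effect over the 4 backgrounds was -0.28 (adjusted p = 0.193), and it was called without UT replicate 3 (adjusted p = 0.0335).

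TCDD alone left Cxcl1 at 26654 and 20137, below every UT array. The difference was 2.28-fold (log2 -1.19, SE 0.300, limma adjusted p = 0.0261). The call was lost without UT replicate 1 (adjusted p = 0.0667), UT replicate 2 (0.112), TCDD replicate 1 or TCDD replicate 2. The log2 difference in those fits was -1.08, -0.94, -1.39 and -0.99. With the Gapdh ratio as covariate it was -0.55 (adjusted p = 0.511). EGF+TCDD had 34124 and 36279 against 17903 and 22646 with EGF (log2 0.81, adjusted p = 0.769), and the full combination 39661 and 45916 against 20509 and 16973 with IDMB + EGF (log2 1.19, adjusted p = 0.192). IDMB + TCDD, at 28321 and 26161, overlapped IDMB (log2 0.55, adjusted p = 0.297). None of these 3 passed, and the mean TCDD effect was 0.34 (adjusted p = 0.247). With EGF alone Cxcl1 had 17903 and 22646, below all UT arrays, at a log2 difference of -1.39.

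In order, Cxcl1 ran from UT through the full combination, EGF+TCDD, IDMB + TCDD, TCDD, EGF and IDMB + EGF to IDMB. Each neighbour in that order overlapped the next except the full combination with EGF+TCDD, and EGF+TCDD with IDMB + TCDD.

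Cxcl5 shares the receptor CXCR2 with CXCL1. It had 40648, 28336 and 38414 with IDMB, against 97134, 131882 and 59482 in UT, with no overlap. It was 2.58-fold lower with IDMB (log2 -1.37, SE 0.279, limma adjusted p = 0.00293, kept without any 1 of the 6 arrays). UT replicate 3 was again the lowest UT array. The mean IDMB effect was -0.54 (SE 0.164, adjusted p = 0.0175), lost without EGF replicate 2 (0.0557), TCDD replicate 1 (0.0517) or the full combination's replicate 1 (0.0524). Outside the UT background, IDMB + TCDD (54586 and 66286) and TCDD (74422 and 48324) differed by log2 0.0044 (95% interval -0.72 to 0.73), and IDMB + EGF (37353 and 24829) overlapped EGF (34756 and 55213).

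TCDD raised Cxcl5 on average: the mean TCDD effect was 0.68 (SE 0.164, adjusted p = 0.0209), or 1.60-fold. The differences above 0 were those in the backgrounds with EGF or IDMB. The full combination had 66551 and 98153 against 37353 and 24829 with IDMB + EGF (log2 1.41, adjusted p = 0.119), and EGF+TCDD had 95267 and 100148 against 34756 and 55213 with EGF (log2 1.16, adjusted p = 0.392). IDMB + TCDD was 0.77 above IDMB on the log2 scale (adjusted p = 0.152), with no overlap, while TCDD alone overlapped UT at -0.61 (adjusted p = 0.249). The mean effect lost its call without EGF replicate 1 (0.0648), EGF+TCDD replicate 2 (0.0548), TCDD replicate 1 (0.0609), IDMB + TCDD replicate 2 (0.0545), the full combination's replicate 2 (0.0683) or IDMB + EGF replicate 2 (0.055). With the actin ratio as covariate it was 0.54 (adjusted p = 0.0639), and with the Gapdh ratio 0.71 (adjusted p = 0.00687). Exact permutation within backgrounds gave p = 0.0381 for the mean TCDD effect (0.114 adjusted over 12 tests) and p = 0.0171 for the mean IDMB effect (0.0684). EGF alone was 1.06 below UT on the log2 scale (log2 -1.06). By mean level EGF+TCDD came first, then UT, the full combination, IDMB + TCDD, TCDD, EGF, IDMB and IDMB + EGF, and each overlapped the next except the full combination with IDMB + TCDD.

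Cxcl12, the stromal ligand of CXCR4, had 101119 and 108060 with IDMB + TCDD, against 30474, 33713 and 51478 with IDMB. The groups did not overlap, although IDMB replicate 3 was well above the other IDMB arrays. TCDD raised Cxcl12 2.78-fold in this background (log2 1.48, SE 0.209, limma adjusted p = 0.00054), and the call held without any one of the 5 arrays (adjusted p up to 0.0135) and with the actin (0.00119) or Gapdh ratio (0.0049) as covariate.

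In EGF cultures the same gene was 65547 and 70918 with TCDD added and 28474 and 31086 without, again with no overlap. That was 2.29-fold (log2 1.20, SE 0.229, adjusted p = 0.0313), but the call was lost without EGF replicate 1 (0.309), EGF replicate 2 (0.185), EGF+TCDD replicate 1 (0.212) or EGF+TCDD replicate 2 (0.279), and with the actin (0.056) or Gapdh ratio (0.129) as covariate. In the full combination Cxcl12 had 106261 and 127193, against 73596 and 54769 with IDMB + EGF, 1.83-fold higher without passing (adjusted p = 0.164). TCDD alone, at 58014 and 44148, lay below UT, at 62861, 75688 and 65358 (log2 -0.42, adjusted p = 0.231). Over the 4 backgrounds the mean TCDD effect was 0.78 (SE 0.110, adjusted p = 0.000426), kept in all 18 fits that left out 1 array. An exact permutation of the TCDD labels within backgrounds (3600 relabellings, two-sided) gave p = 0.00861, or 0.0517 adjusted over 12 such tests.

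IDMB had opposite signs for Cxcl12 in different backgrounds. Against UT it was lower by 1.80-fold (log2 -0.85, SE 0.187, adjusted p = 0.00507, kept without any 1 array). With the actin ratio as covariate the log2 difference was -0.93 (SE 0.271, adjusted p = 0.0516). Against EGF it was higher: 73596 and 54769 in IDMB + EGF, 28474 and 31086 with EGF, or 2.13-fold (log2 1.09, SE 0.229, adjusted p = 0.00548). The call was lost without IDMB + EGF replicate 1 (log2 0.88) and with the actin ratio as covariate (log2 1.02, adjusted p = 0.0514). Against TCDD, IDMB + TCDD was 2.07-fold higher (log2 1.05, SE 0.229, adjusted p = 0.00737). That call was lost without TCDD replicate 2 (log2 0.85) or IDMB + TCDD replicate 2 (log2 1.00). With the actin ratio as covariate it was lost as well (log2 0.95, adjusted p = 0.164). The full combination was 1.71-fold above EGF+TCDD without overlap (adjusted p = 0.0563). Tested as differences between backgrounds, IDMB moved Cxcl12 up by log2 1.95 more with EGF than without it (SE 0.296, adjusted p = 0.015; 0.252% of all probe sets called), and by 1.90 more with TCDD than without it (SE 0.296, adjusted p = 0.00812; 0.378%). The first was lost without EGF replicate 2 (0.0609) or IDMB + EGF replicate 1 (0.056), and it uses the EGF and UT arrays that chose the genes. The second held without any one of its 10 arrays, but it too uses the UT arrays of the contrast that chose the genes. Once the remaining agent was present, the same differences were -0.28 and -0.32, and neither passed (adjusted p = 0.891 and 1; 0% of all probe sets called in either).

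Averaged over backgrounds, IDMB raised Cxcl12 by log2 0.51 (SE 0.110, adjusted p = 0.00171, kept in all 18 fits), but by 0.42 (adjusted p = 0.423) with the actin ratio as covariate, and the exact permutation over 4320 relabellings gave p = 0.0644. EGF added to IDMB gave a log2 difference of 0.76 (adjusted p = 0.0542), which passed without IDMB + EGF replicate 2 (0.0439) or IDMB replicate 3 (0.00907). With EGF alone Cxcl12 had the lowest group mean, at a log2 difference of -1.19 from UT. IDMB replicate 1, IDMB replicate 2 and both EGF arrays were the 4 lowest of the 18. By mean level the full combination came first, then IDMB + TCDD, EGF+TCDD, UT, IDMB + EGF, TCDD, IDMB and EGF, and each overlapped the next except IDMB + TCDD with EGF+TCDD.

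Cx3cl1, the membrane-bound chemokine, was higher with IDMB in all 4 backgrounds. Its 9 arrays with IDMB ran from 15262 to 41501, and the 9 without from 3378 to 15913. Only IDMB replicate 1 (15262) lay below an array without IDMB, EGF replicate 1 (15913). IDMB alone gave 15262, 24643 and 38610, a wide spread, against 3378, 4724 and 5770 in UT, a 5.40-fold rise (log2 2.43, SE 0.263, limma adjusted p = 9.12e-06). IDMB + TCDD had 41501 and 39680 against 11968 and 8756 with TCDD, 3.96-fold higher (adjusted p = 0.000819), and the full combination 29168 and 31290 against 5716 and 6582 with EGF+TCDD, 4.93-fold higher (adjusted p = 0.00033). All 3 calls held without any one array. IDMB + EGF had 36702 and 38338 against 15913 and 11989 with EGF, a 2.72-fold rise (adjusted p = 0.00825), lost without EGF replicate 2 (0.108). The mean IDMB effect was 2.04 (SE 0.154, adjusted p = 4.45e-08), kept in every fit with 1 array left out, and 2.41 (adjusted p = 0.000406) with the actin ratio as covariate. The exact permutation gave p = 0.000463, the smallest that 4320 relabellings allow.

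The TCDD and EGF differences of Cx3cl1 had both signs. TCDD alone had 11968 and 8756 against 3378, 4724 and 5770 in UT, above every UT array and 2.27-fold higher (log2 1.18, SE 0.293, adjusted p = 0.0241). The call was lost without UT replicate 1 (0.0704), UT replicate 2 (0.066), TCDD replicate 1 (0.198) or TCDD replicate 2 (0.0617), and with the Gapdh ratio as covariate (log2 0.54, adjusted p = 0.503). EGF alone, at 15913 and 11989, was 1.61 above UT on the log2 scale. Given together, they left it at 5716 and 6582, below both EGF arrays (log2 -1.17, adjusted p = 0.274) and both TCDD arrays (log2 -0.74, adjusted p = 0.215), and overlapping UT. In IDMB cultures, TCDD gave 0.73 (adjusted p = 0.146), which passed without IDMB replicate 3 (0.0229), and EGF 0.62 (adjusted p = 0.262), while the full combination against IDMB + TCDD gave -0.43 (adjusted p = 0.658). By mean level IDMB + TCDD came first, then IDMB + EGF, the full combination, IDMB, EGF, TCDD, EGF+TCDD and UT. The full combination overlapped IDMB, IDMB overlapped EGF, EGF+TCDD overlapped UT, and the other neighbours did not overlap.

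For 3 of the chemokines limma called the EGF difference unlike with TCDD and without it, but only in contrasts that hold EGF against UT values. Averaged over IDMB absent and present, the EGF difference was larger with TCDD than without it by log2 1.32 for Cxcl1 (SE 0.314, limma adjusted p = 0.0293) and 1.20 for Cxcl5 (SE 0.327, adjusted p = 0.0471). For Cx3cl1 it was smaller by 1.70 (log2 -1.70, SE 0.308, adjusted p = 0.00881), and for Cxcl12 it was 0.51 (adjusted p = 0.192). That is 3 of 4 called, against 4.47% of all probe sets, in a contrast that partly holds EGF against UT. Without IDMB the 4 values were 1.99 (adjusted p = 0.0628) for Cxcl1, 1.76 (0.0891) for Cxcl5, 1.62 (0.0356) for Cxcl12 and -2.35 (0.032) for Cx3cl1, so 2 of 4 were called against 0.364%, in a contrast that holds EGF against UT whole. With IDMB, in arrays outside EGF against UT, they were 0.64, 0.64, -0.60 and -1.05 (adjusted p = 0.56, 0.575, 0.406 and 0.3). There 0 of 4 were called by limma, against 0.981%, and 1 of 4 had an unadjusted p under 0.05. Earlier results of these data were known when the genes were chosen. The averaged Cx3cl1 call held in all 18 fits with 1 array left out. The Cxcl1 call was lost in 8 of them (without EGF 1, EGF+TCDD 1 or 2, TCDD 2, IDMB + TCDD 1 or 2, the full combination 2 or IDMB + EGF 2, adjusted p up to 0.0845). The Cxcl5 call held only without EGF 2, UT 3, TCDD 1, IDMB + EGF 1 or IDMB 2, and was lost without any other array (up to 0.132). Of the calls without IDMB, Cxcl12 held only without UT 1, UT 3 or TCDD 1, and Cx3cl1 only without UT 1 or UT 3 (both up to 0.162). The Gapdh ratio moves with this same pair of agents. With it as covariate the averaged values were 0.37, 0.24 and -0.76 for Cxcl1, Cxcl5 and Cx3cl1, and none was called (adjusted p = 0.846, 0.908 and 0.669). With the actin ratio, Cx3cl1 kept its call at -1.55 (adjusted p = 0.0392), and Cxcl1 (0.105) and Cxcl5 (0.154) did not. The 2 calls without IDMB were lost as well: Cxcl12 was 1.60 (adjusted p = 0.0624) with the actin ratio and 1.73 (0.514) with the Gapdh ratio, and Cx3cl1 was -2.27 (0.0517) and -1.31 (0.645). For EGF with IDMB and for TCDD with IDMB, averaged over the third agent, limma called 0 of 4 (0.126% and 0.112% of all), with 2 and 3 of 4 at an unadjusted p under 0.05.

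Separate probe sets of a gene did not always give the same size. The second Cxcl1 probe set (95349_g_at, 10446 to 50601) followed the first (95348_at), with IDMB against UT at -1.43 (adjusted p = 0.00149) and TCDD against UT at -0.99 (adjusted p = 0.0531), and its EGF by TCDD value was 1.06 (adjusted p = 0.0673). For Cxcl12, the TCDD differences of 162234_f_at were larger than those of 100112_at in all 4 backgrounds, and those of 160511_at were smaller in the backgrounds with EGF or IDMB. For IDMB + TCDD against IDMB these were 2.37 (5.17-fold, adjusted p = 0.00054) with 162234_f_at, at 43950 and 62910 against 19974, 6622 and 7971, and 0.93 (adjusted p = 0.038) with 160511_at, at 78360 and 87770 against 56552, 32586 and 44647. All 3 probe sets were therefore called for that contrast, with the same sign. For the full combination against IDMB + EGF, 162234_f_at alone was called (log2 1.83, adjusted p = 0.0364). For IDMB against UT, 160511_at was not called (-0.44, adjusted p = 0.239). The mean TCDD effect was 1.21 (adjusted p = 0.000545) with 162234_f_at and 0.41 (adjusted p = 0.0865) with 160511_at. The suffix _f marks a probe set that can match several related sequences. The 2 Cx3cl1 probe sets disagreed: 161752_r_at, of a class designed with relaxed rules, read 157 to 1426 over all arrays and its mean IDMB effect was -0.60 (SE 0.392, adjusted p = 0.26), against 2.04 for 98008_at. Every Cx3cl1 result above is from 98008_at.

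**Figure D3:**
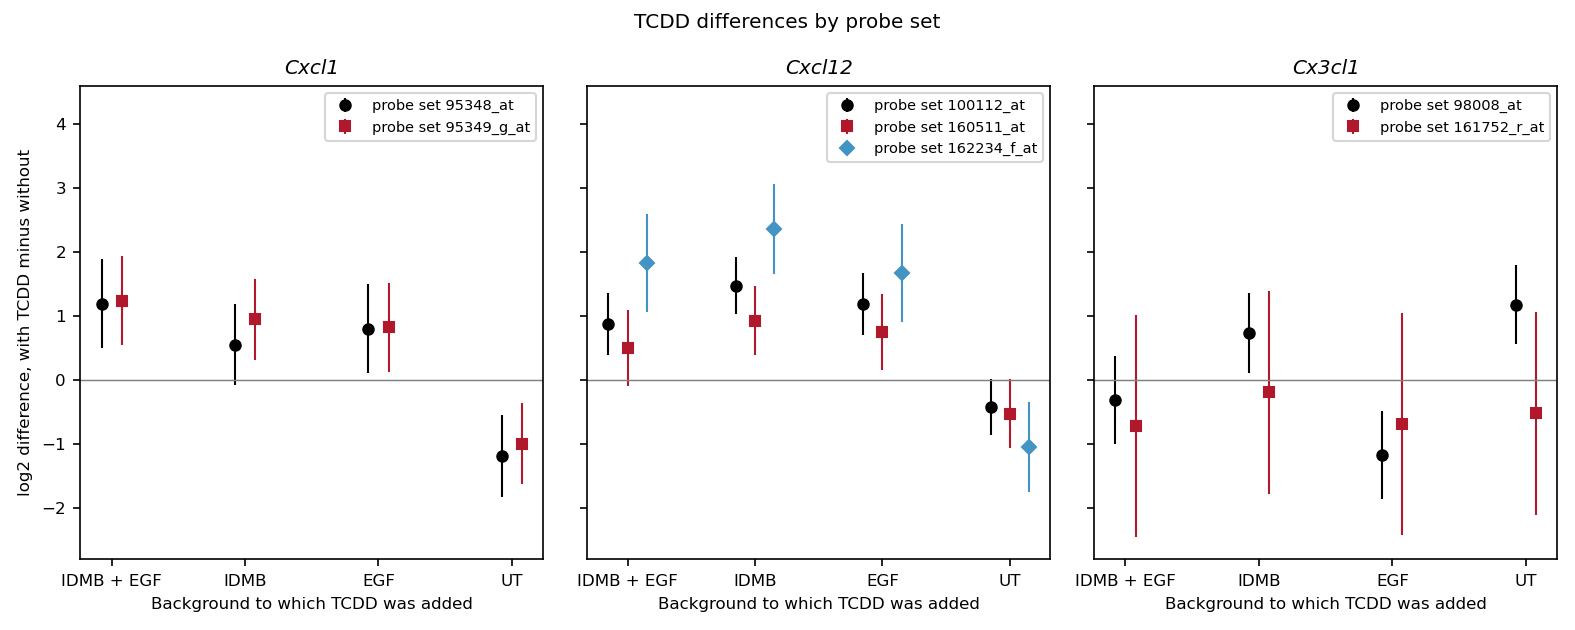
Log2 difference between arrays with and without TCDD (y axis, 95% confidence intervals from limma) in 4 backgrounds, for each probe set of the 3 chemokines that have more than 1. The 3 Cxcl12 probe sets share their sign in each background and differ in size (0.93 to 2.37 in IDMB cultures), and the 2 Cx3cl1 probe sets do not follow each other.

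The receptors that these ligands use were mostly low in the same cells. Of 10 CXC and CX3C receptor genes on the array, 4 passed the filter, and Cxcr2, the receptor of CXCL1 and CXCL5, read at most 422, and Cxcr4, the signalling receptor of CXCL12, at most 251. Cx3cr1 read 630 to 2002 and was not called in any mean effect. Ackr3, the receptor that clears CXCL12, was called. It read 7674 and 8712 with IDMB + TCDD against 2279, 2861 and 3653 with IDMB, 2.84-fold higher (log2 1.51, SE 0.234, limma adjusted p = 0.0011). It read 5877 and 7111 in the full combination against 1936 and 2553 with IDMB + EGF (log2 1.54, SE 0.256, adjusted p = 0.0116), lost without the full combination's replicate 2 or IDMB + EGF replicate 1 (up to 0.201) and with the actin (0.142) or Gapdh ratio (0.0987) as covariate. Without IDMB, TCDD arrays did not stand apart: 1947 and 1892 with TCDD against 2055, 3000 and 1904 in UT (adjusted p = 0.567), and 1716 and 1486 with EGF+TCDD against 1340 and 1515 with EGF (adjusted p = 0.999). The TCDD difference of Ackr3 was larger with IDMB than without it by 1.56 (adjusted p = 0.00814). Ackr3 and Cxcl12 were both at their highest on the 4 arrays that had IDMB and TCDD.

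**Figure D4:**
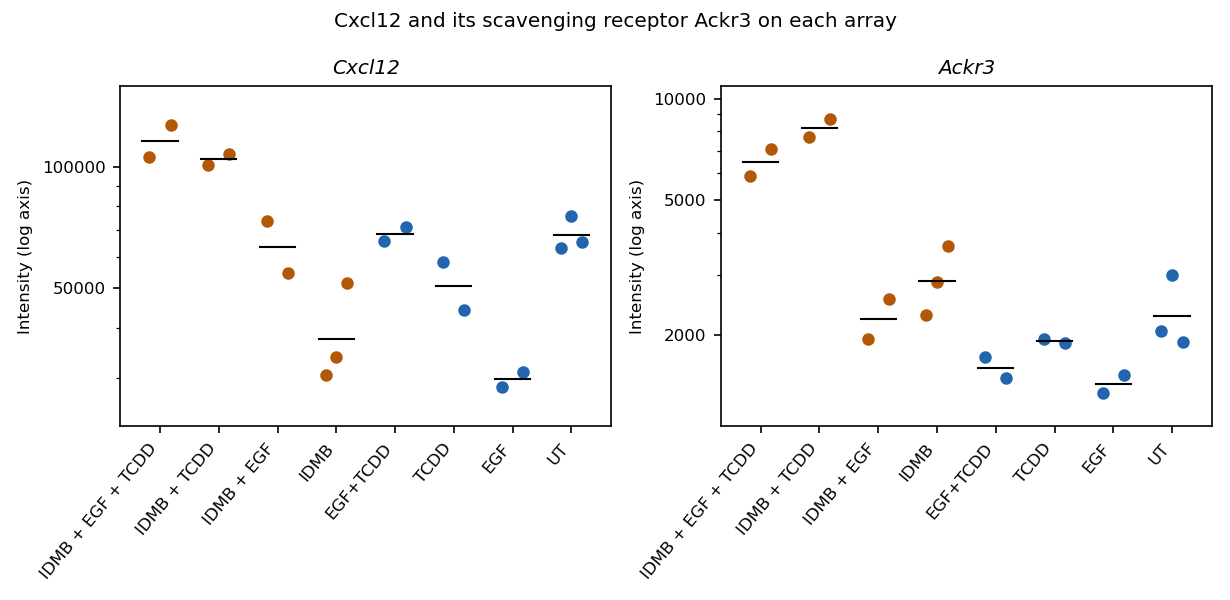
Intensity (log axis) of Cxcl12 (100112_at) and Ackr3 on each array by group (brown with IDMB, blue without), with geometric means. Both have their 4 highest arrays in the 2 groups with IDMB and TCDD, where Ackr3 reads 5877 to 8712 and at most 3653 elsewhere.

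Among 9 CXC ligand genes on the array, Cxcl1, Cxcl5 and Cxcl12 were the 3 that passed the filter. Pf4, Cxcl2, Cxcl9, Cxcl10, Cxcl13 and Cxcl14 stayed at or under 516 on all arrays and were at or below the floor on 7 to 17 of 18. As these 3 are the chemokines described above, their medians repeat values already given. The median mean TCDD effect was log2 0.68 (that of Cxcl5), against 0.01 over all tested probe sets. The median mean IDMB effect was -0.28 (that of Cxcl1), against -0.04. Of 6 CC and XC ligand genes tested, which attract mainly monocytes and lymphocytes, 1 rose and 2 fell with IDMB and 2 fell with TCDD. Those that fell with IDMB were Ccl2 and Ccl7, the 1 that rose was Ccl17 (adjusted p = 0.453 with the actin ratio as covariate), and those that fell with TCDD were Ccl9 and Ccl17. Ccl2 fell by log2 3.32 with IDMB (SE 0.272, adjusted p = 1.17e-07).

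Genes around the chemokines were read from lists of known roles. Of 11 NF-kB subunits and inhibitors, Relb (log2 0.57, adjusted p = 0.0261) and Bcl3 (0.98, adjusted p = 0.0364) passed in the mean TCDD effect, but Relb did so in 11 and Bcl3 in 7 of 18 fits that left out 1 array, and neither did with the actin ratio as covariate (0.0757 and 0.0763). With IDMB, the inhibitor Nfkbia was higher (0.70, adjusted p = 0.000697) and the subunit Rela lower (-0.44, adjusted p = 0.000977) in all 18 such fits, and neither passed with the actin ratio (0.335 and 0.839). Tnip1, which restrains the same pathway, passed with IDMB (0.31, adjusted p = 0.0298), but in 11 of the 18, and not with the actin ratio (0.518). Of 3 proteases that cut chemokines, Adam10, which sheds CX3CL1, was higher with IDMB (0.47, adjusted p = 0.00291, and 0.242 with the actin ratio). Adam17, which also sheds it, was not called in a mean effect. Mmp14 was lower with EGF (-0.41, adjusted p = 0.0219) and with TCDD (-0.42, adjusted p = 0.0336). Neither Mmp14 call held in all 18 fits, and neither passed with the actin ratio (0.623 and 0.0976). Of 5 genes that act on mRNAs with AU-rich ends, a feature of cytokine mRNAs, Zfp36 (0.75, adjusted p = 0.00145) and Zfp36l1 (1.36, adjusted p = 2.14e-07), which speed decay, were higher with IDMB, and Elavl1 (-0.66, adjusted p = 0.000148), which protects mRNAs, and Hnrnpd (-0.91, adjusted p = 4.33e-06) were lower. With the actin ratio as covariate Zfp36l1 (0.00628) and Elavl1 (0.0193) passed, and Zfp36 (0.245) and Hnrnpd (0.0566) did not. Background shares for these mean effects were 13.1% of all probe sets called for EGF, 5.54% for TCDD and 34.1% for IDMB, and 0, 2 and 3 of the 4 chemokines were called in them, with 0 of 4 at an unadjusted p under 0.05 for EGF.

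Across the 18 arrays Cxcl1 and Cxcl5 had a Pearson r of 0.895 on the log2 scale, and Cxcl1 and Cx3cl1 one of -0.562. These values describe arrays that share treatments. The probe sets of other genes most like each chemokine, out of 6441, were Apobec1 (0.81), Gadd45b (0.785) and Phldb2 (0.759) for Cxcl1. They were Apobec1 (0.875), Gstm1 (0.775) and Ifnar2 (0.771) for Cxcl5, and Itm2c (0.871), Nek6 (0.851) and P2rx4 (0.832) for Cxcl12. For Cx3cl1 they were both probe sets of Errfi1 (0.924), which encodes a feedback inhibitor of the EGF receptor, and Imp3 (0.923).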

How the data were processed

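The deposited values of 18 1-colour arrays are signal intensities on a linear scale, per the labels, and no label or header names the software that made them. Array means were alike in the files (2501 to 2502 without the outer 2% at either end), so values were used as deposited, with a floor at the 20th percentile (143.5), and log2 was taken. Probe sets whose highest group mean reached the median (9.73 on the log2 scale) were tested: 7134 of 12488, for 5438 genes. Of all probe sets 10833 have 1 gene symbol, 396 several and 1193 none, and 66 are controls. One mean per group was fitted to all arrays with limma 3.58.1 in R 4.3.3 (variance trend, 10 residual and 6.03 prior degrees of freedom), with Benjamini-Hochberg adjustment over all tested probe sets. The fit was tested on simulated data. Each gene is given by its probe set with the highest mean, except where named. Precision is limited by how few arrays each group has. Mean effects are averages over 4 backgrounds. Genes named outside the 4 are list members with a call, the 3 probe sets most correlated with each chemokine, and receptors, ligands and cell markers given by level; those given by level, and which called members were named, were chosen after their values were seen. The chemokines, lists and tests were chosen with earlier results of these data known. Replicate numbers paired the arrays weakly at most, and the main fit used no pairing. Of 28 pairs of groups, 8 had same-numbered deviations correlated over 0.1 (median 0.05). The highest were UT with IDMB and TCDD with IDMB + TCDD (0.25 each). Alternatives covered the floor, scaling, filter, variance trend, replicate block, 3' to 5' ratios, other probe sets, arrays left out and exact permutation.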

Additional observations from a re-analysis of the deposited data

Results flagged for a closer look

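These results were flagged because limma called the difference of an effect between backgrounds. All of them use arrays of EGF against UT, which chose the genes, so they are not independent evidence. For Cxcl1 and Cxcl5 the EGF effect was larger with TCDD than without it by log2 1.32 and 1.20. For Cx3cl1 the same difference was -1.70, and -2.35 without IDMB. For Cxcl12 it was 1.62 without IDMB. The averaged values partly hold EGF against UT, which chose the genes, and those without IDMB hold it whole. With IDMB present 0 of 4 were called by limma, with 1 of 4 at an unadjusted p under 0.05, and with the Gapdh ratio as covariate none of the averaged values was called. The Cxcl12 effect of EGF was larger with IDMB than without it by 1.95 where TCDD was absent, again holding EGF against UT. Its effect of TCDD was larger with IDMB by 1.90 where EGF was absent, which uses the UT arrays of that contrast. All but the last and the averaged Cx3cl1 value lost their call when at least 1 single array was left out. No group had the 4 arrays that a search for an array far from the rest needs.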

How the results depend on the processing

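Of 28 called chemokine values, 12 were called in every fit that left out 1 array, and no array moved a called fold by more than 1.28 times. The 28 include 3 in EGF against UT, which are a description and carry no test. A floor at the 10th percentile and log2(value + 100) changed none of the 24 mean and interaction results. Leaving out 1 array at a time gave these ranges. Mean EGF effects were -0.12 to 0.037 for Cxcl1, -0.12 to 0.047 for Cxcl5 and -0.015 to 0.10 for Cxcl12. The Cxcl5 mean TCDD effect was 0.60 to 0.76, and mean IDMB effects were -0.37 to -0.21 for Cxcl1 and -0.62 to -0.46 for Cxcl5. EGF by TCDD was 1.18 to 1.4955 for Cxcl1 and 1.04 to 1.37 for Cxcl5, and EGF by IDMB was 0.73 to 0.95 for Cxcl12. IDMB + EGF against IDMB was -0.17 to 0.29 for Cxcl1 and -0.51 to 0.079 for Cxcl5. IDMB + EGF against EGF was -0.28 to 0.060 for Cxcl1, IDMB + TCDD against TCDD -0.31 to 0.32 for Cxcl5, and the full combination against EGF+TCDD -0.55 to 0.0070 for Cxcl5. With TCDD, EGF by IDMB was -0.16 to 0.25 for Cxcl1 and -0.59 to 0.034 for Cxcl5, and with EGF, TCDD by IDMB was -0.083 to 0.59 for Cxcl5. Probe sets called numbered 463 to 1018 for the mean EGF effect (935 on all arrays), 260 to 462 for TCDD (395), 111 to 407 for EGF by TCDD (319), 0 to 21 for EGF by IDMB (9) and 8 to 14 for TCDD by IDMB (8). In single contrasts they numbered 14 to 513 for EGF against UT (440 on all arrays, lowest without EGF replicate 2), 1 to 220 for EGF+TCDD against TCDD (250, TCDD replicate 2), 30 to 260 for IDMB + EGF against IDMB (271, IDMB + EGF replicate 1), 114 to 643 for TCDD against UT (548, TCDD replicate 2), 151 to 505 for IDMB + TCDD against IDMB (470, IDMB + TCDD replicate 2), 306 to 555 for IDMB + TCDD against TCDD (914, IDMB + TCDD replicate 2), 309 to 618 for IDMB + EGF against EGF (770, EGF replicate 2), 177 to 220 for the full combination against EGF+TCDD (464) and 785 to 954 for IDMB against UT (1004). The 3 others had 20 to 26 calls on all arrays and 0 to 23 with 1 left out.

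Quantile scaling gave -0.087 for the Cxcl12 mean EGF effect, 0.91 for Cxcl5 EGF by TCDD, 0.92 for Cxcl12 EGF by IDMB (adjusted p = 0.0499), -0.42 for Cxcl5 in IDMB + TCDD against TCDD, 0.083 for Cxcl5 EGF by IDMB with TCDD and 21 probe sets called for EGF by IDMB. Median scaling gave 1.18 for Cxcl5 EGF by TCDD (adjusted p = 0.0817), 2 called for EGF by IDMB, -0.015 for Cxcl1 in IDMB + EGF against IDMB and -0.059 for Cxcl1 EGF by IDMB with TCDD. Without the filter, more probe sets were tested, and calls were lost for the Cxcl5 mean TCDD (0.68, adjusted p = 0.0926) and IDMB (-0.54, 0.0692) effects and EGF by TCDD of Cxcl1 (1.32, 0.0943) and Cxcl5 (1.20, 0.134), with 174 called for EGF by TCDD and 15 for TCDD by IDMB. Without the variance trend, EGF by TCDD of Cxcl1 (1.32, 0.0556) and Cxcl5 (1.20, 0.081) lost their calls, and 0 were called for EGF by IDMB. With the replicate number as a block, a weak pairing at most in these arrays, the Cx3cl1 mean EGF effect was 0.39 (adjusted p = 0.0415). In that fit Cxcl1 in IDMB + EGF against IDMB was -0.22, and 597, 15 and 14 probe sets were called for EGF by TCDD, EGF by IDMB and TCDD by IDMB.

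With the actin ratio as covariate, the number called was 0 for the mean EGF effect, 448 for IDMB, 73 for EGF by TCDD and 3 for EGF by IDMB. Values were -0.025 for the Cxcl12 mean EGF effect, 0.54 for Cxcl5 TCDD, 0.42 for Cxcl12 IDMB, and 1.08 and 0.90 for EGF by TCDD of Cxcl1 and Cxcl5. Signs turned for Cxcl1 in IDMB + EGF against IDMB (-0.24), IDMB + TCDD against TCDD (-0.37), the full combination against EGF+TCDD (-0.51) and EGF by IDMB with TCDD (-0.13), and for Cxcl5 in the full combination against IDMB + TCDD (-0.33), IDMB + TCDD against TCDD (-0.77) and TCDD by IDMB with EGF (-0.19). With the Gapdh ratio, 0 were called for the mean EGF effect, 1 for EGF by TCDD and 0 for EGF by IDMB, and EGF by TCDD was 0.37, 0.24 and -0.76 for Cxcl1, Cxcl5 and Cx3cl1. Signs turned for EGF+TCDD against TCDD in Cxcl1 (-0.85), Cxcl5 (-0.78) and Cx3cl1 (0.71), the full combination against IDMB + TCDD in Cxcl1 (-0.51), Cxcl5 (-0.76) and Cx3cl1 (0.73), IDMB + EGF against IDMB in Cxcl1 (-0.31), TCDD against UT in Cxcl5 (0.044), the full combination against IDMB + EGF in Cx3cl1 (0.16), IDMB + TCDD against TCDD in Cxcl1 (-0.028) and Cxcl5 (-0.26), EGF by TCDD with IDMB in Cxcl1 (-0.20) and Cxcl5 (-0.21), and EGF by IDMB with TCDD in Cxcl5 (0.020).

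Other probe sets gave 0.19, 1.06 and -0.24 for Cxcl1 (95349_g_at: mean EGF, EGF by TCDD, EGF by IDMB with TCDD), 0.41 for the Cxcl12 mean TCDD effect (160511_at), and -0.30 and 0.16 for the Cxcl12 mean EGF effect and TCDD by IDMB with EGF (162234_f_at). For Cx3cl1, 161752_r_at gave -0.53 and -0.60 for the mean TCDD and IDMB effects, -0.35 for EGF by TCDD, 0.93 for EGF+TCDD against TCDD, -0.0089 for IDMB + EGF against IDMB, -0.52 for TCDD against UT, -0.19 for IDMB + TCDD against IDMB, -0.12 for IDMB against UT, -1.24 for IDMB + EGF against EGF, -1.26 for the full combination against EGF+TCDD, -1.46 for EGF by IDMB with TCDD, and 0.33 and -0.021 for TCDD by IDMB without and with EGF. The exact permutation of IDMB labels gave p = 0.0644 for the Cxcl12 mean IDMB effect (0.51). Except where a covariate, fewer arrays or more probe sets tested define the alternative, the cause was not tested.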

Other observations

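Of 10 tested genes for inflammatory cytokines and their receptors, limma called 1 for the mean EGF effect (13.1% of all probe sets called), 2 for TCDD (5.54%) and 7 for IDMB (34.1%). With TCDD, Il1r1 (log2 1.00, adjusted p = 0.000546) and Il6st (0.54, adjusted p = 0.00161) were higher, in all 18 fits that left out 1 array. With IDMB, 6 were higher and 1 lower, and the median log2 effect was 0.49, against -0.04 over all tested probe sets. With the actin ratio as covariate, Myd88 (adjusted p = 0.0234) was the 1 of these 7 that passed. Of 7 tested inflammatory targets of NF-kB, 3 were higher and 2 lower with IDMB, 1 was higher with TCDD and 2 were lower with EGF. Neither EGF call was kept with either ratio as covariate, and of the IDMB calls Lcn2 (0.0035) and Saa3 (0.000282) were kept with the actin ratio.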
